A study of Mus musculus with 20 samples.

Results

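The genes described here are 9 genes that carry fatty acids and lipoprotein lipid into the adipocyte, namely Lpl, Gpihbp1, Angptl4, Vldlr, Cd36, Slc27a1, Slc27a4, Fabp4 and Fabp5. They were taken by gene name from the count tables of 20 mouse white adipose libraries, and all 9 were found among 56805 annotated genes. All 9 also passed the filter on low counts that left 21306 genes to test. RNA was sequenced from white adipose tissue of 4 groups of 5 mice after 10 weeks. Feed was chow or high-fat, drink was water or Tibetan tea extracted in water, and the groups are called chow water, chow tea, high-fat water and high-fat tea below. The mice were randomly assigned and fed ad libitum. No strain, sex, age or adipose depot is stated in the labels.

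White fat takes up most of its lipid from the blood as fatty acids released from triglyceride-rich lipoproteins. Lipoprotein lipase, made by adipocytes, is carried across the capillary wall and held there by Gpihbp1, while Angptl4 inactivates it. The freed fatty acids pass the plasma membrane with the help of Cd36 and of the fatty acid transport proteins, are trapped as acyl-CoA, and are bound in the cytosol by Fabp4 and Fabp5.

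The libraries held 53047057 to 93314761 reads in genes, and the 9 genes together took between 0.638% and 3.638% of them (median 3.09%). Levels are given as CPM (read counts scaled to equal depth) on library sizes scaled by trimmed means of M values. The labelled tissue was checked by its defining genes, and adiponectin (Adipoq) ranged from 844 to 4157 CPM over the 20 libraries. In 5 libraries over 1% of reads fell in genes of another organ. These were chow water library 1 (pancreas, 35.9%), high-fat water library 4 (seminal vesicle and adrenal), high-fat water library 5 and high-fat tea library 1 (skeletal muscle) and high-fat tea library 4 (kidney). Chow water library 1 was the lowest library of its group for 8 of the 9 genes, high-fat water library 4 for all 9 and high-fat tea library 4 for 7. Adipoq was 981, 1957 and 844 CPM in these 3 libraries, the lowest of each group as well. In bulk tissue, fewer cells of a type and less RNA per cell cannot be told apart.

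The 9 genes differed widely in level. As reads per kilobase of annotated exon at equal depth (RPKM), the median over 20 libraries was 3127 for Fabp4, 1242 for Cd36, 785 for Lpl, 218 for Slc27a1, 183 for Angptl4, 91.8 for Gpihbp1, 62.0 for Fabp5, 12.0 for Vldlr and 9.44 for Slc27a4. Neighbours in this order were not always apart, since Slc27a1 lay above Angptl4 in 13 of 20 libraries, Gpihbp1 above Fabp5 in 15 and Vldlr above Slc27a4 in 16. Every other neighbour pair kept its order in all 20 libraries. The scale depends on the length used. The annotated exons of Fabp4 cover 100% of its span, which includes its introns, and with the longest coding transcript as the length, Lpl moved above Cd36 and Fabp5 above Angptl4 and Gpihbp1.

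**Figure D1:**
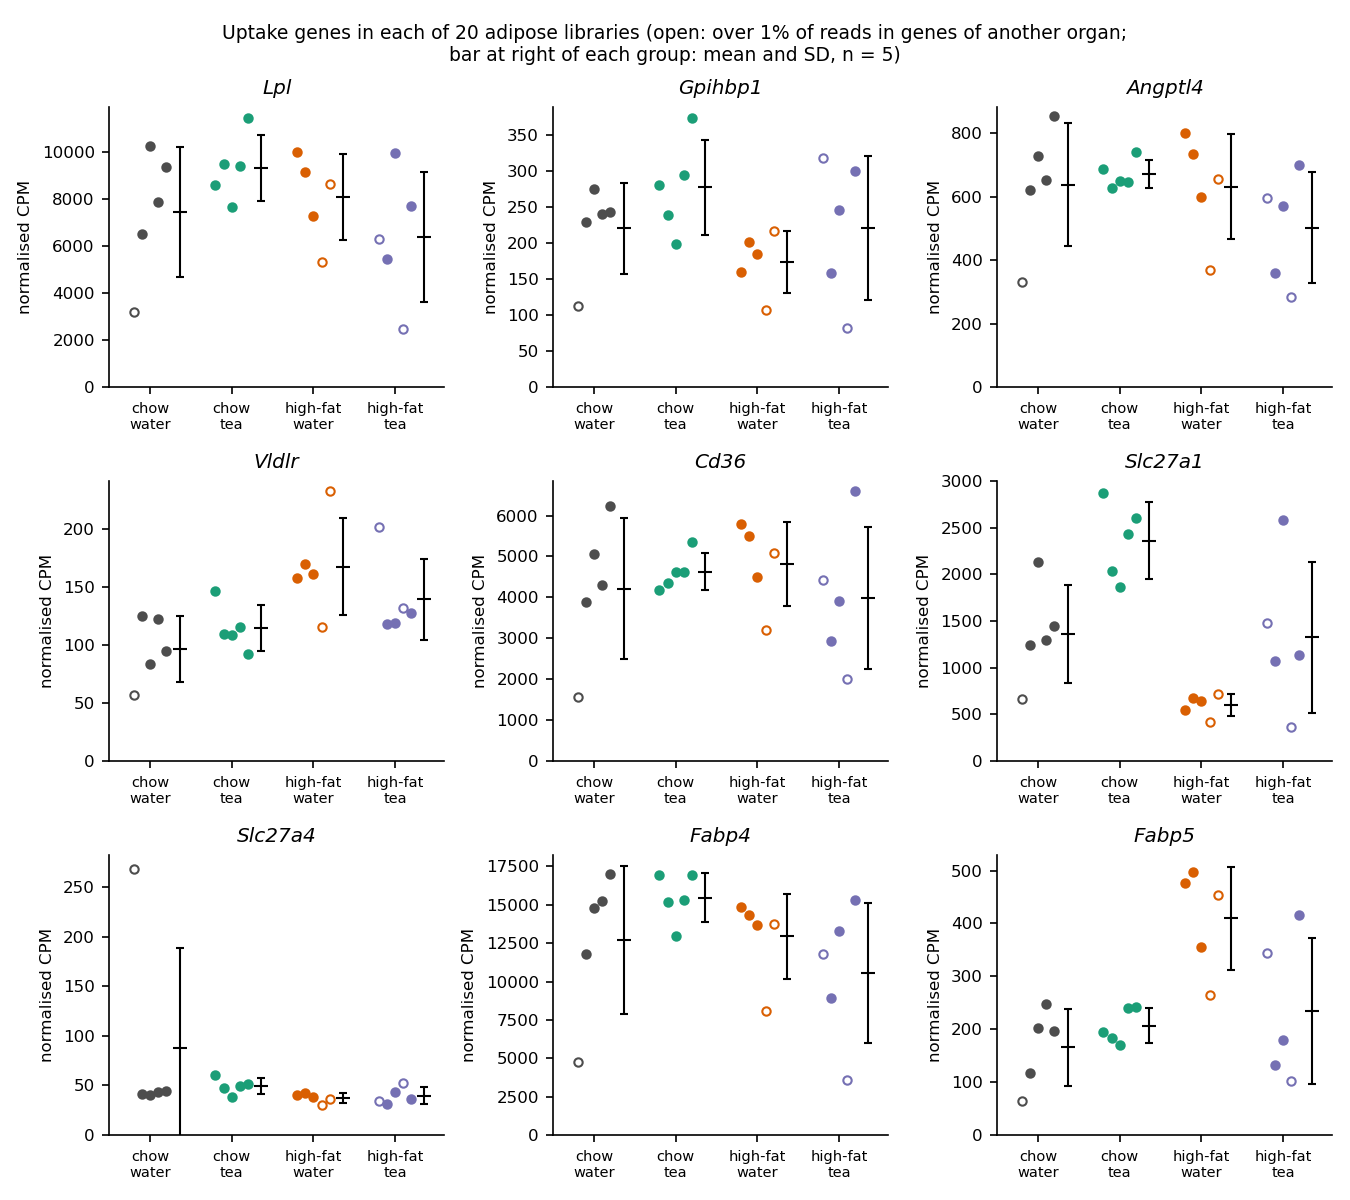
Level of each of the 9 uptake genes in normalised CPM (vertical axis, from 0) in the 5 libraries of each group, with the mean and SD at the right of each group. Open points are the 5 libraries with over 1% of reads in genes of another organ. For Slc27a4 the SD of chow water reaches below 0 and is clipped, because library 1 stands at 268 CPM while the other 4 lie between 40.7 and 43.9.

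High-fat and chow feeding were compared first in mice that drank water, which sets the diets side by side without tea. Fabp5 and Vldlr were higher and Slc27a1 was lower after the high-fat diet, while the most abundant genes, Fabp4, Cd36 and Lpl, stayed within the spread between mice. By edgeR (quasi-likelihood, p adjusted over all 21306 genes by Benjamini and Hochberg), 3 of the 9 genes passed an adjusted p of 0.05, 2 higher and 1 lower. Of all genes tested, 15.2% passed, 8.06% higher and 7.11% lower. The groups did not overlap for 1 of the 9 genes, against 12.9% of all genes. The median log2 change of the 9 genes was 0.02, and that of all genes was 0.

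Lipoprotein lipase (Lpl, chromosome 8, 69333143 to 69360100, plus strand, GRCm39) stood at 3174, 6533, 10270, 7877 and 9368 CPM in chow water libraries 1 to 5 and at 9984, 9164, 7285, 5310 and 8635 CPM in high-fat water libraries 1 to 5. The groups overlapped over nearly their whole range. The log2 change was 0.12 (SE 0.37, 95% interval −0.65 to 0.88, adjusted p = 0.859).

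Gpihbp1 (chromosome 15, 75468477 to 75471330, plus strand), the capillary anchor of the lipase, was at 113, 230, 276, 241 and 244 CPM in chow water and at 159, 201, 185, 108 and 216 CPM in high-fat water. Apart from chow water library 1, each chow library lay above each high-fat library. The log2 change was −0.34 (SE 0.31, 95% interval −0.996 to 0.312, adjusted p = 0.484), and it was −0.55 without chow water library 1, also not called. Endothelial markers, which mark the cells that make Gpihbp1, were called in 0 of 10 genes, and their summed level ran from 1000 to 1967 CPM in chow water and from 1326 to 1943 CPM in high-fat water.

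Angptl4 (chromosome 17, 33992724 to 34000804, minus strand), the secreted inhibitor of the lipase, averaged 638 ± 194 CPM in chow water and 632 ± 165 CPM in high-fat water (SD, n = 5 per group). Its change was near 0 (log2 −0.01, SE 0.26, 95% interval −0.56 to 0.54, adjusted p = 0.978).

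Vldlr (chromosome 19, 27193884 to 27231631, plus strand) encodes a cell surface receptor that binds triglyceride-rich particles. It was at 57.3, 125, 83.7, 123 and 95.1 CPM in chow water and at 158, 170, 161, 116 and 233 CPM in high-fat water. High-fat water library 4 fell inside the chow range, and the other 4 high-fat libraries lay above every chow library. The rise was 1.73-fold (log2 0.79, SE 0.22, 95% interval 0.34 to 1.25, adjusted p = 0.0213). It was not called without high-fat water library 5 (adjusted p = 0.0603) or with only these 2 groups in the fit (adjusted p = 0.0539), and it remained called without the 5 libraries with other-organ reads (log2 0.61, adjusted p = 0.0165).

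Cd36 (chromosome 5, 17986688 to 18093799, minus strand), the fatty acid translocase of the plasma membrane, was at 1576, 3893, 5059, 4301 and 6221 CPM in chow water and at 5787, 5500, 4487, 3210 and 5072 CPM in high-fat water. The highest library of all 10 was a chow library, library 5. The log2 change was 0.19 (SE 0.34, 95% interval −0.52 to 0.91, adjusted p = 0.74).

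Slc27a1 (chromosome 8, 72021526 to 72039946, plus strand) encodes fatty acid transport protein 1, an acyl-CoA synthetase that in adipocytes is moved to the plasma membrane by insulin. It was at 663, 1248, 2131, 1299 and 1448 CPM in chow water and at 542, 678, 638, 420 and 715 CPM in high-fat water. The 5 high-fat libraries lay close together, and only chow water library 1, the library with pancreatic reads, fell among them. The fall was 2.27-fold (log2 −1.18, SE 0.38, 95% interval −1.97 to −0.39, adjusted p = 0.0412). The call was close to the threshold. With each library left out in turn it held in 1 of 10 fits, the one without chow water library 1 (log2 −1.40, adjusted p = 0.0163), and in the others the change came as close to 0 as −0.96 (adjusted p up to 0.104). Without the 5 libraries with other-organ reads it was −1.31 (adjusted p = 0.0109).

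Slc27a4 (chromosome 2, 29692646 to 29707534, plus strand), fatty acid transport protein 4, is best known from intestine and skin. It was at 268, 41.4, 40.7, 43.7 and 43.9 CPM in chow water and at 40.4, 41.9, 38.3, 29.8 and 36.3 CPM in high-fat water. Chow water library 1 was above every other library of the study, whose highest value was 60.4 CPM. The fitted log2 change of −1.23 (SE 0.43, adjusted p = 0.0612) was −0.23 without that library. It was called in 4 of 10 fits with 1 library left out, each of which held chow water library 1.

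Fabp4 (chromosome 3, 10269148 to 10273636, minus strand), the main lipid carrier of the adipocyte cytosol, averaged 12730 ± 4820 CPM in chow water and 12940 ± 2770 CPM in high-fat water (SD, n = 5 per group). The log2 change was 0.02 (SE 0.40, 95% interval −0.82 to 0.87, adjusted p = 0.975).

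Fabp5 (chromosome 3, 10077608 to 10081667, plus strand), a related carrier that is also made by macrophages and endothelial cells, was at 65.0, 117, 203, 247 and 197 CPM in chow water and at 476, 498, 355, 264 and 454 CPM in high-fat water. Every high-fat library was above every chow library. The rise was 2.47-fold (log2 1.31, SE 0.37, 95% interval 0.53 to 2.09, adjusted p = 0.0253). It was not called when any one of chow water library 2 and high-fat water libraries 1 and 2 was left out (adjusted p up to 0.0678), and it was called without the 5 libraries with other-organ reads (log2 1.22, adjusted p = 0.0228). Against Fabp4 of the same library, Fabp5 had 0.988 to 1.62 reads per 100 Fabp4 reads in chow water and 2.59 to 3.48 in high-fat water. In high-fat tea it had 1.36 to 2.91, which overlaps both. This ratio was not computed for all genes.

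The coding sequences of Fabp4 and Fabp5 are printed because their transcripts separated with the diet although the genes are near relatives that lie close together on chromosome 3. They are the longest coding models of each gene in the GENCODE vM21 transcripts of GRCm38, of which the first 300 bases from the start codon are shown, and capitals mark the bases that are identical between both in the alignment.
Fabp4: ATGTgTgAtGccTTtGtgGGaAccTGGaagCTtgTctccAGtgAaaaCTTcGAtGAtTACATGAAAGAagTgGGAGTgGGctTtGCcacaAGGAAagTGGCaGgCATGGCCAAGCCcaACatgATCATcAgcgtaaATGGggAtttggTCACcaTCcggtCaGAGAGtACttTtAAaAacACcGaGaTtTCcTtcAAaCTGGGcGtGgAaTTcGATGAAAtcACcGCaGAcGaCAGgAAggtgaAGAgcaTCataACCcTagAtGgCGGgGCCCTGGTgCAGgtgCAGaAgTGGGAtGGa
Fabp5: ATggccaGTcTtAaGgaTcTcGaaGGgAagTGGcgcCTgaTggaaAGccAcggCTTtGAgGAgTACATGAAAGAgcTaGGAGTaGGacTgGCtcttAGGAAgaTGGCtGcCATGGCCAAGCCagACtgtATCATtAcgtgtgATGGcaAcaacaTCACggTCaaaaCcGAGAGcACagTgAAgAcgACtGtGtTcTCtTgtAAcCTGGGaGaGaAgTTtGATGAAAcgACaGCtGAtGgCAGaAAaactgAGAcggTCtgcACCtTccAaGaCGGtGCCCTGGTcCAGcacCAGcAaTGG
Over all 399 aligned positions 245 bases were identical (61.4%), and the longest identical run was 12 bases. The coding sequences share 0 stretches of 31 bases, so a read that matches over such a length belongs to 1 of them. Of the Fabp5 coding stretches of 31 bases, 83.9% occur in at least 1 of 5 other genes (Fabp5l2, Gm13998, Gm14328, Gm6100 and Gm6166). These 5 genes were counted at 1530 reads over 20 libraries, 0.39% of the 392593 reads of Fabp5. How reads with several matches were treated is not given in the sources used here, so the level of Fabp5 is less certain than that of Fabp4.

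Macrophage markers also differed between these groups. Of 12 general macrophage markers 3 were higher and 2 lower. Of 10 markers of lipid-associated macrophages, 8 were higher and 0 lower, among them Trem2, a lipid receptor (log2 4.04, SE 0.62, adjusted p = 0.000758). Their summed level ran from 273 to 347 CPM in chow water and from 933 to 3027 CPM in high-fat water, and none was at 0 in all libraries. Adgre1, which encodes F4/80, rose from 39.1 ± 20.6 to 112 ± 48.4 CPM (SD over 5 mice each; log2 1.51, adjusted p = 0.0206), a call lost without chow water library 2 or high-fat water library 1. Of 12 adipocyte markers, 1 was higher (Dgat2, called in 2 of 10 fits with 1 library left out) and 1 lower (Pck1), and without the 5 libraries 0 were higher and 2 lower. Adipoq was not called (log2 0.11, adjusted p = 0.87), and the summed level of the 12 markers ran from 10180 to 31520 CPM in chow water and from 12320 to 21820 CPM in high-fat water. The part of these cells in the changes of Fabp5, Vldlr and Slc27a1 was not tested.

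**Figure D2:**
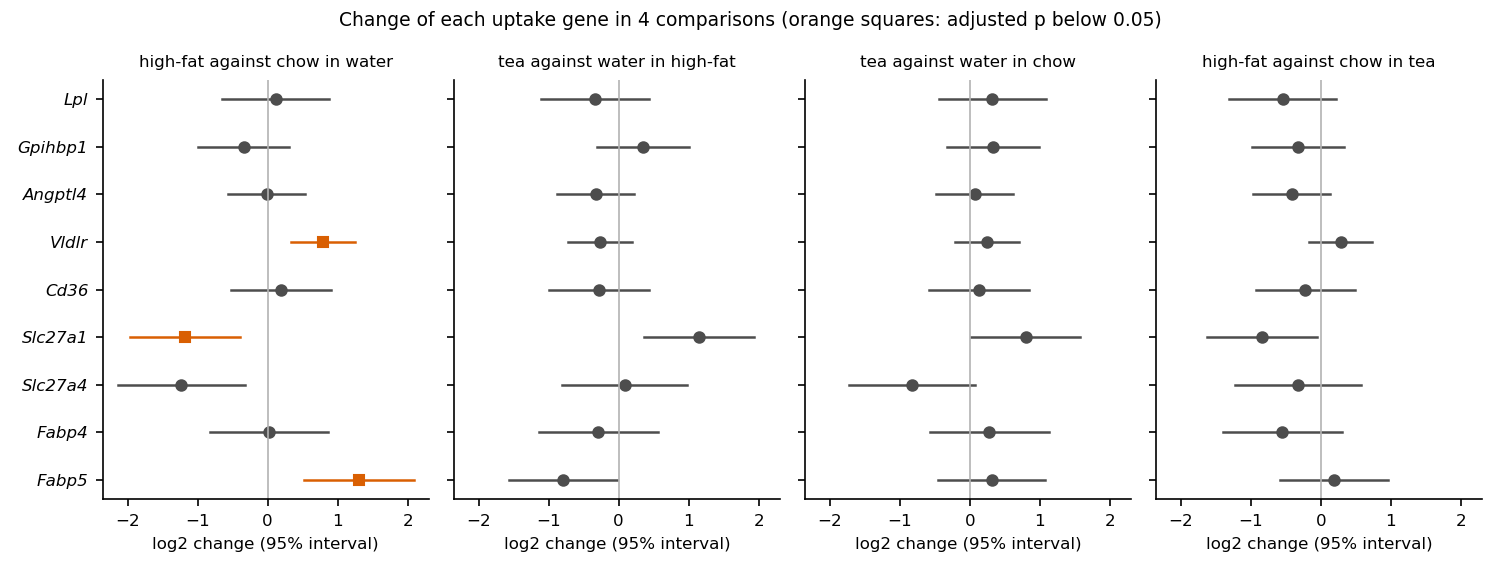
Log2 change of each uptake gene (horizontal axis) with its 95% interval in the 4 comparisons between groups, from edgeR's fit over all genes. Orange squares mark an adjusted p below 0.05 and stand only in the first panel, for Fabp5 and Vldlr (higher) and Slc27a1 (lower). Slc27a1 has its largest shift against that direction in the second panel, at 1.15.

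Tea was then compared with water in mice on the high-fat diet, which sets the tea against its control within that diet. Slc27a1 was higher on average and Fabp5 lower with tea, and neither passed the test. Of the 9 genes, 0 were called by edgeR, against 4.36% of all genes. At an unadjusted p under 0.05 stood 2 of the 9 genes (23.6% of all genes), and DESeq2 called 1, Slc27a1, while it called 11.5% of all genes. The groups overlapped for all 9 genes, and 5.55% of all genes had groups that did not overlap. The median log2 change of the 9 genes was −0.28 and that of all genes 0.02.

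Slc27a1 was at 1475, 1072, 2579, 362 and 1133 CPM in high-fat tea libraries 1 to 5, against the 420 to 715 CPM of high-fat water given above. High-fat tea library 4, the library with kidney reads, was below every high-fat water library, and the other 4 were above all of them. The mean was 1324 ± 810 CPM (SD, n = 5), and the log2 change was 1.15 (SE 0.38, 95% interval 0.36 to 1.93, adjusted p = 0.0819). It was called without high-fat tea library 4 (log2 1.39, adjusted p = 0.0215), without the 5 libraries with other-organ reads (log2 1.36, adjusted p = 0.0318) and by DESeq2 (adjusted p = 0.0179), which called more genes in this comparison, 2444 against 928. It was 0.76 without high-fat tea library 3, the highest library (adjusted p = 0.22).

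Fabp5 was at 343, 132, 180, 102 and 416 CPM in high-fat tea. Libraries 1 and 5 lay in the high-fat water range, and libraries 2, 3 and 4 lay below it. The log2 change was −0.80 (SE 0.37, 95% interval −1.57 to −0.03, adjusted p = 0.193). Of the lipid-associated macrophage markers, 5 of 10 were lower with tea and 0 higher, and their summed level ran from 281 to 873 CPM in high-fat tea. Without the 5 libraries with other-organ reads 1 of 10 was lower, Lgals3, which was also called with any 1 library left out, while Trem2 was called in 5 of 10 such fits. Trem2 lay between 1.95 and 20.3 CPM in high-fat tea, below the 24.5 to 101 CPM of high-fat water. With only these 2 groups in the fit, 21 of all genes were called in place of 928, and the marker genes were not refitted this way.

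Vldlr was at 202, 118, 119, 132 and 128 CPM in high-fat tea, all within the range of high-fat water (log2 −0.26, SE 0.22, adjusted p = 0.496). Gpihbp1 was at 318, 159, 246, 82.2 and 300.3 CPM and spanned the whole range of the water group on both sides (log2 0.35, SE 0.31, adjusted p = 0.544). The changes of Lpl, Cd36, Fabp4 and Angptl4 lay between −0.34 and −0.28, with adjusted p from 0.482 to 0.716, and that of Slc27a4 was 0.09. The 95% intervals of these 4 genes reached down to between −1.14 and −0.88 and up to between 0.22 and 0.56.

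In chow-fed mice the comparison of tea with water shows the tea without the high-fat diet. None of the 9 genes was called by edgeR, and 1 stood at an unadjusted p under 0.05 (Slc27a1). DESeq2 called 0 of the 9 and 1.22% of all genes. Few genes passed by edgeR in this comparison, 5 or 0.0235%, and 12.4% stood at an unadjusted p under 0.05. Slc27a1 was at 2875, 2039, 1862, 2430 and 2603 CPM in chow tea, so that libraries 2 and 3 lay under the highest chow water library and the other 3 above it. The log2 change was 0.80 (SE 0.37, 95% interval 0.02 to 1.58, adjusted p = 0.391). Gpihbp1 ranged from 198 to 375 CPM in chow tea, with a log2 change of 0.33 (SE 0.31, adjusted p = 0.726). Apart from Slc27a4, whose change of −0.82 was 0.20 without chow water library 1, the other 6 genes had changes between 0.07 and 0.32. Chow tea had no library over 1% of other-organ reads, and its SD was 6.59% of the mean for Angptl4, 9.65% for Cd36 and 10.5% for Fabp4, against 30.4%, 40.8% and 37.9% in chow water.

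The diets were also compared among mice that drank tea. Again 0 of the 9 genes were called by edgeR, against 0.178% of all genes, and 1 stood at an unadjusted p under 0.05 (16.3% of all genes). DESeq2 called 0 of the 9 and 4.39% of all genes. Slc27a1 was lower in high-fat tea than in chow tea on average (log2 −0.83, SE 0.37, 95% interval −1.62 to −0.05, adjusted p = 0.281). High-fat tea library 3, at 2579 CPM, lay inside the chow tea range, and the other 4 lay below it. Fabp5 and Vldlr, the 2 genes called higher with the high-fat diet in water, had log2 changes of 0.19 (SE 0.37, adjusted p = 0.851) and 0.28 (SE 0.22, adjusted p = 0.539) in tea.

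The difference between the diet effects with tea and with water was tested as an interaction. DESeq2 called 0 of the 9 genes and 3.25% of all genes, and edgeR called 0 of the 9, against 0.0657% of all genes. At an unadjusted p under 0.05 in edgeR stood 1 of the 9, as did 3196 of all 21306 genes. That gene was Fabp5, with an interaction of −1.12 on the log2 scale (SE 0.52, 95% interval −2.21 to −0.03, adjusted p = 0.318). The interaction was −0.51 for Vldlr (SE 0.31, adjusted p = 0.461) and 0.35 for Slc27a1 (SE 0.52, adjusted p = 0.815), so that a diet effect that differs with tea was not shown for any of them.

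Because the summed adipocyte markers ran from 10180 to 31520 CPM within chow water alone, reads of each gene were also set against those of Adipoq in the same library, a description chosen after the levels had been seen and not tested. Slc27a1 had 17.9, 19.9, 21.0, 21.4 and 20.3 reads per 100 Adipoq reads in high-fat water. In the other groups it had 67.6, 53.5, 51.3, 48.4 and 39.0 in chow water, 55.8 to 88.6 in chow tea, and 42.7, 52.1, 83.2, 42.8 and 30.7 in high-fat tea. High-fat water thus lay below every library of every other group, chow water library 1 and high-fat tea library 4 included. On this scale the groups did not overlap for 3 of the 9 genes between the diets in water (5.08% of all genes) and for 2 between tea and water in high-fat feeding (2.52% of all genes). In CPM these shares of all genes were larger, 12.9% and 5.55%. Whether the 9 genes exceed the shares on the Adipoq scale was not tested.

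The other genes that separated on this scale were Fabp5 and Gpihbp1. Fabp5 had 4.87 to 9.21 reads per 100 Adipoq reads in chow water, 11.7 to 15.7 in high-fat water and 5.82 to 12.1 in high-fat tea. Gpihbp1 had 6.56 to 11.5 in chow water, 5.24 to 6.12 in high-fat water and 7.70 to 9.73 in high-fat tea. Against Pecam1, an endothelial marker, the groups overlapped for Gpihbp1. Per 100 Pecam1 reads it had 40.2 to 75.7 in chow water, 44.0 to 57.7 in high-fat water and 45.8 to 80.6 in high-fat tea. The Adipoq scale moves all genes, since the median log2 ratio of group means over all genes was −0.42 between the diets in water and 0.54 between tea and water in high-fat feeding. On the same scale, the log2 ratio was −0.59 and 0.56 for Gpihbp1, near these medians, −1.37 and 1.32 for Slc27a1, and 1.14 and −0.59 for Fabp5, whose groups overlapped in the second comparison.

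**Figure D3:**
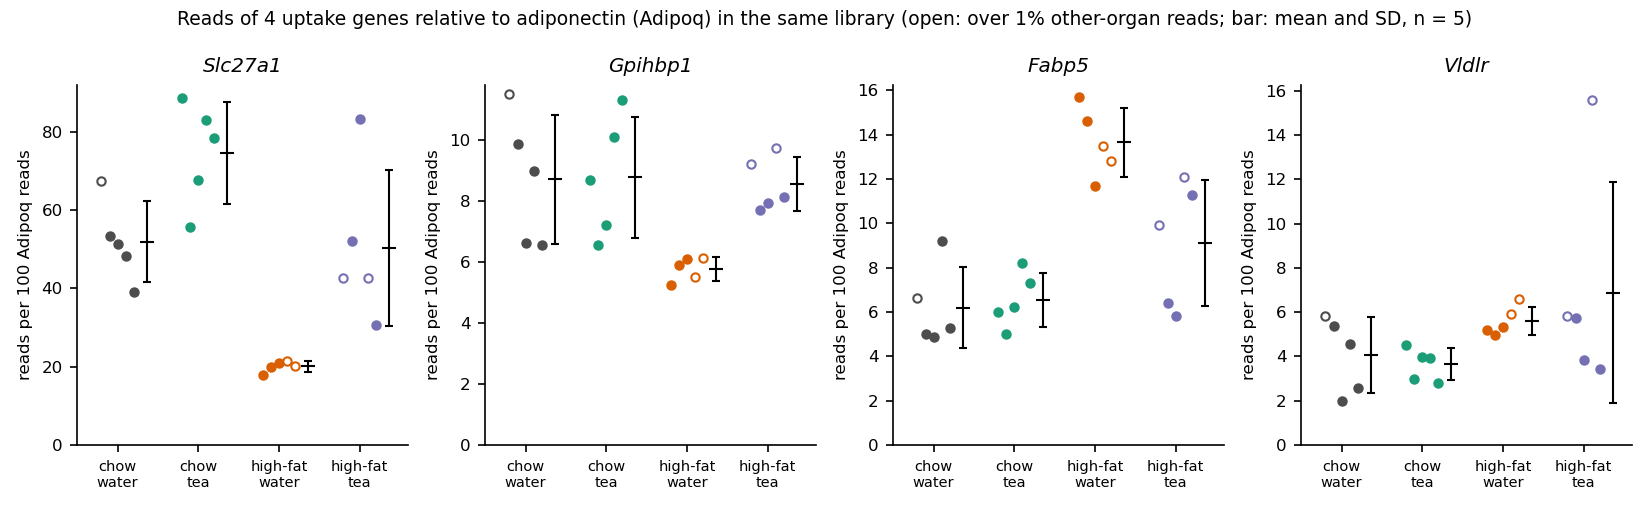
Reads of Slc27a1, Gpihbp1, Fabp5 and Vldlr per 100 Adipoq reads of the same library (vertical axes, from 0), with the mean and SD of 5 libraries at the right of each group. The 5 high-fat water libraries lie between 17.9 and 21.4 for Slc27a1, below all 15 others, and Vldlr reaches 15.6 in high-fat tea library 4, where Adipoq was lowest.

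The RefSeq start-site windows of Vldlr and Slc27a1, a pair called in opposite directions, are shown as context. Windows of 250 bases upstream were matched in RefSeq (GRCm38.p6) for 4 of the 9 genes, and those of Vldlr and Slc27a1 without annotated exon bases are printed. Capitals mark matches, on either strand, to AGGTCA (nuclear receptor half-site), CACGTG (E-box), ACGTG (hypoxia core, which overlaps the E-box), GGGCGG (GC box) or AGAACA (glucocorticoid half-site).
Vldlr upstream start, chr19:27216234-27216483, plus strand: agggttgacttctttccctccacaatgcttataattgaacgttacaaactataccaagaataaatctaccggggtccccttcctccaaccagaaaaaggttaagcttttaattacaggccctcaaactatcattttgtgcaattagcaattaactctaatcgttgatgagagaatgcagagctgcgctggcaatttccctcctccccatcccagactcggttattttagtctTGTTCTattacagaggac
Slc27a1 at the start of a coding transcript, chr8:71568621-71568870, plus strand: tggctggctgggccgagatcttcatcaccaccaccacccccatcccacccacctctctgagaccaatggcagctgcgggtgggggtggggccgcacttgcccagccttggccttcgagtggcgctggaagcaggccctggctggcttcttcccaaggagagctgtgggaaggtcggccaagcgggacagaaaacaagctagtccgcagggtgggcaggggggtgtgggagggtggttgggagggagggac
Slc27a1 downstream start, chr8:71570344-71570593, plus strand: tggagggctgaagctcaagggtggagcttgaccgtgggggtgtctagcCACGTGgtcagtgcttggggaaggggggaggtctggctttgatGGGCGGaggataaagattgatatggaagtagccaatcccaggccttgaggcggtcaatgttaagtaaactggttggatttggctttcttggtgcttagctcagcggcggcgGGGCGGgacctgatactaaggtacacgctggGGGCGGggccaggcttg
The first Slc27a1 window held none of these letters. The downstream one held 1 E-box, found in 6.0% of 32851 RefSeq windows of the same length, and 3 GC boxes, of which at least 1 was found in 32.7%. The printed Vldlr window held 1 match to AGAACA, found in 16.1%. No coding transcript starts within 50 bases of the printed Vldlr start or of the downstream Slc27a1 start. The other Vldlr window (chr19:27216770-27217019), with 179 annotated exon bases, lies at the start of 2 coding transcripts. It held 1 GC box and 0 matches to AGAACA. A match describes letters and not a bound site.

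Other genes of the pathway were read from lists. Beside the counts below, 15.2% of all genes were called between the diets in water and 4.36% with tea in high-fat feeding. Without the 5 libraries with other-organ reads these shares were 16.9% and 4.12%. Whether a list exceeds them was not tested. Caveolae are membrane pits of adipocytes and endothelium in which Cd36 resides. In high-fat against chow feeding with water, 5 of 9 genes of caveolae and Cd36 palmitoylation were higher and 0 lower. Cavin3, a caveolar coat protein, rose from 21.2 ± 7.86 to 105 ± 41.2 CPM (SD over 5 mice each; log2 2.31, SE 0.34, adjusted p = 0.000535). Cav1 and Cav2, the caveolins, rose by 1.49 (adjusted p = 0.01) and 1.48 (adjusted p = 0.00619) on the log2 scale, and Lyn, a kinase that acts on the Cd36 palmitoylation enzyme, by 0.81 (adjusted p = 0.00501). Each of these 4 remained called with any 1 library left out. Ehd2 (log2 1.05, adjusted p = 0.0457) did so in 2 of 10 fits. The median of the list was 0.95 beside 0 for all genes, and without the 5 libraries with other-organ reads 6 of 9 were called.

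With tea in high-fat feeding, 3 of these 9 genes were lower and 0 higher (4 without the 5 libraries). Cavin3 was at 28.1 ± 13.7 CPM in high-fat tea (SD, n = 5; log2 −1.90, SE 0.33, adjusted p = 0.00713), called with any 1 library left out. Lyn fell by 0.74 (adjusted p = 0.0231, called in 6 of 10 such fits) and Cav1 by 1.33 (adjusted p = 0.0402, called in 2 of 10). The summed level of the list was 3969 to 7416 CPM in high-fat water, 1367 to 4382 CPM in chow water and 1401 to 5133 CPM in high-fat tea. This comparison shares the high-fat water libraries with the one between diets. With only the high-fat water and high-fat tea groups in the fit, 21 of all genes were called in place of 928. The genes of the lists were not refitted this way.

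Of 8 genes of endothelial fatty acid transport, 3 were higher with the high-fat diet in water and 0 lower. Aplnr, the apelin receptor, rose from 8.21 ± 3.16 to 58.6 ± 25.1 CPM (SD over 5 mice each; log2 2.83, SE 0.41, adjusted p = 0.000498). Its ligand Apln rose by 1.90 (adjusted p = 0.028, called in 5 of 10 fits with 1 library left out) and Meox2, a transcription factor of capillary endothelium, by 1.06 (adjusted p = 0.0477, called in 2 of 10). With tea in high-fat feeding Aplnr fell by 1.48 (adjusted p = 0.0405, called in 3 of 10), 1 of the 8 genes, and without the 5 libraries 0 of 8 were called.

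**Figure D4:**
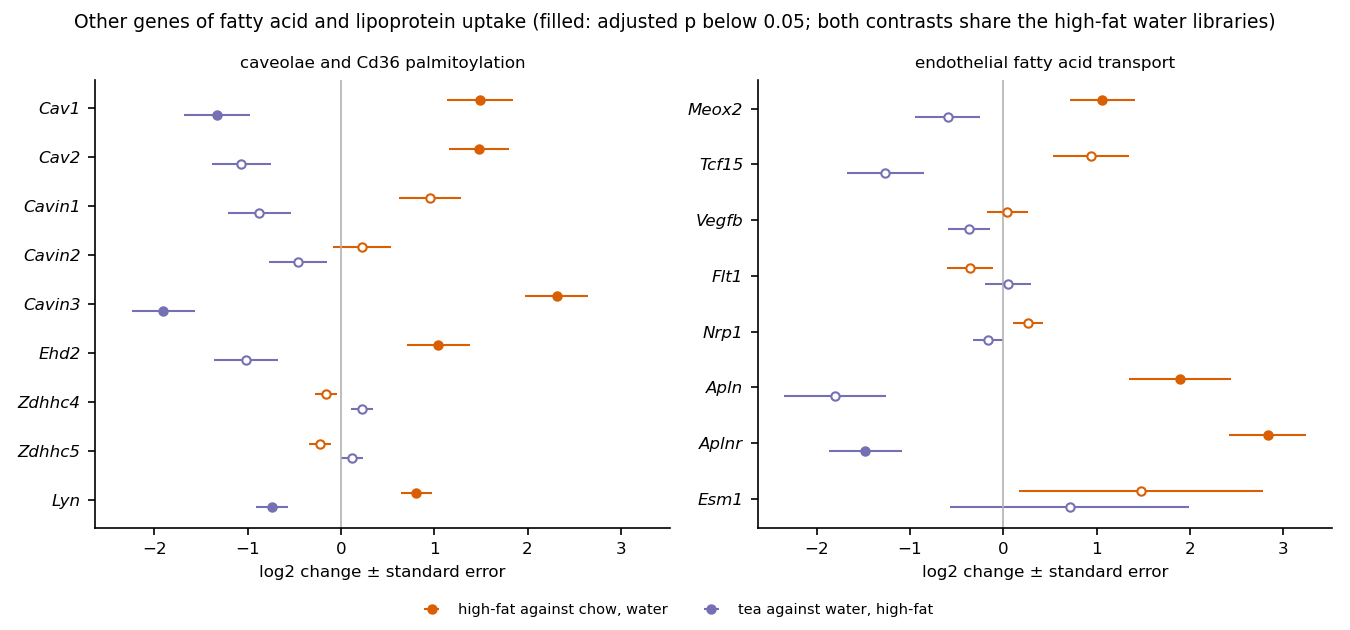
Log2 change with its standard error (horizontal axes) of 2 lists of other uptake genes, for high-fat against chow feeding in water (orange) and tea against water in high-fat feeding (purple). Filled points passed an adjusted p of 0.05, among them Cavin3 at 2.31 and −1.90 and Aplnr at 2.83 and −1.48.

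Between the diets in water, of 15 partners of lipoprotein lipase, 0 were higher and 3 lower (1 and 4 without the 5 libraries). Of all genes 15.2% were called there, and 16.9% without the 5 libraries. Apoc1, an apolipoprotein that restrains the lipase, fell by 0.97 (adjusted p = 0.0228, called in 7 of 10 fits with 1 library left out). Lipg, endothelial lipase, fell by 2.13 (adjusted p = 0.0137). Apoc3, an inhibitor made mainly by liver and intestine, was lower as well (log2 −5.58, adjusted p = 0.00571, and −3.85 without the 5 libraries with other-organ reads).

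Of 7 other fatty acid transport genes 2 were higher, Slc27a3 (log2 2.06, adjusted p = 0.0152, and 0.72 without the 5 libraries) and Slc27a6, at no more than 1.26 CPM in any high-fat water library (log2 2.27, adjusted p = 0.0327). With 1 library left out, Slc27a3 was called in 10 of 10 fits and Slc27a6 in 5. Slc27a3 reached 65.0 CPM in 1 library and had a median of 7.85 CPM in high-fat water. Among 8 acyl-CoA synthetase genes, 1 was called, Acsbg1, on 1 library at 234 CPM (log2 3.85, adjusted p = 0.0492, and −0.63, not called, without the 5 libraries). Of 8 other fatty acid binding proteins 6 were tested and 1 called, Fabp2, the intestinal form, which stood at 1183 CPM in 1 chow water library and had a median of 1.54 CPM there.

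Of 10 transcription factors known to act on these genes, 1 was lower, Ppard (log2 −0.68, SE 0.17, adjusted p = 0.0126). Pparg, the main regulator of adipocyte uptake genes, was not called (log2 −0.63, SE 0.33, adjusted p = 0.209), but it was without the 5 libraries with other-organ reads (log2 −0.77, adjusted p = 0.00703). Of 14 other targets of PPAR factors 5 were lower and 0 higher, and without the 5 libraries 5 were lower and 1 higher (Cpt1a). Pdk4, a kinase that turns off glucose oxidation, fell by 1.77 (adjusted p = 0.00755) and was called with any 1 library left out. With 1 library left out, Ehhadh was called in 1 of 10 fits, Cyp4a10 and Creb3l3 in 4 each and Fgf21 in 5. Creb3l3 and Fgf21 were not called without the 5 libraries (log2 1.07 and −0.86). Ehhadh and Cyp4a10 were lower here and higher with tea in high-fat feeding, where they stood at 1658 and 835 CPM in 1 library and had medians of 137 and 2.24 CPM, and neither call with tea held without the 5 libraries. Beyond caveolae, Aplnr and these 2 genes, none of the pathway genes on these lists was called with tea in high-fat feeding by edgeR over all libraries. Without the 5 libraries 3 others were higher, the lipase partners Apoa5 (log2 6.08, adjusted p = 0.0283) and Apoc3 (log2 4.34, adjusted p = 0.0387) and the transport protein gene Slc27a5 (log2 3.70, adjusted p = 0.0194). In the remaining comparisons 0 were called. Liver genes took 0.02%, 0.0027% and 0.0063% of reads in the kept high-fat tea libraries 2, 3 and 5. In the kept high-fat water libraries 1, 2 and 3 they took 0.0025%, 0.0017% and 0.0013%. The part of such reads in the calls of Apoa5, Apoc3 and Slc27a5 with tea was not tested.

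Across the 20 libraries the abundant uptake genes varied together. Pearson's r of log2 levels was 0.96 between Lpl and Fabp4, 0.91 between Cd36 and Fabp4 and 0.92 between Cd36 and Angptl4. Without chow water library 1 and high-fat tea library 4 these were 0.84, 0.76 and 0.89 over 18 libraries. For Fabp5 and Slc27a1 r was −0.09 over 20 libraries and −0.55 over 18, and 0.60 and 0.26 once the group means were removed. These values are descriptions, since libraries share their groups and their content of adipocytes.

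Among 12026 genes compared over the 20 libraries, those most like each uptake gene were taken as a description. Fabp4 was most like Plin1, the coat protein of the lipid droplet (r = 0.96 over 20 libraries and 0.82 over 18). Gpihbp1 was most like Adgrf5, an endothelial receptor (r = 0.95 and 0.91), and Fabp5 most like Asap1 (r = 0.94 and 0.91). Slc27a1 was most like Zfyve26 and Slc43a1 (r = 0.97 each), followed by Car5b, a mitochondrial carbonic anhydrase (r = 0.96), and these stayed at 0.96 or above over 18 libraries. Cd36 was closest to Gnai1 (0.96, and 0.91 over 18 libraries) and Lpl to H2-D1 (0.95 and 0.86). Angptl4 was closest to Piezo1 (0.96 and 0.92) and Vldlr to Acyp2 (0.90 and 0.86). Slc27a4 was closest to Prpsap1 (0.96, and 0.80 over 18 libraries), followed by Pi4k2b, and Cyp2j6 dropped from 0.93 to 0.26.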

How the data were processed

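Poly-A RNA was sequenced with a stranded mRNA preparation, 1 library for each of 20 samples. The series design names 5 mice a group, and each library is read as 1 mouse. The deposited values are raw read counts for each gene. Per the file headers, the authors made them with featureCounts 2.0.6 in paired-end mode, with no strand option and with pairs not counted as 1, on gene models of GRCm39. The submitters' processing notes name fastp 0.23.2, HISAT2 2.2.1 and mm10, a build other than that of the headers, so GRCm39 positions come from the headers alone. Of counts from 1 to 20, 68.1% to 72.2% were even.

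From the counts, edgeR 4.0.16 (R 4.3.3) fitted 1 quasi-likelihood model with 4 group means to all 20 libraries, scaled by TMM. Its filter, a minimum of 10 counts in 5 libraries and 15 in total, left 21306 genes and removed 35499. P-values were adjusted over these by Benjamini-Hochberg, and a gene was called at 0.05. Levels are CPM on TMM-scaled library sizes. In simulated data over 21306 genes, 100 were changed 2-fold, 100 were changed 4-fold and the rest kept equal means. Of the 2-fold changes the fit recovered 48% between the diets in water and 39% between tea and water in high-fat feeding. More genes were called in the real data, 15.2% and 4.36%, and recovery at those shares was not tested. Alternatives were size factors by RLE, DESeq2 1.42.0, limma 3.58.1 voom, no filter, a replicate block, only the groups compared, and fits without libraries. No 2 libraries of a group were repeats.

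Same-numbered libraries did not deviate together: r ran from −0.27 to 0.475 over 30 pairs, with 9 above 0.1, so the numbers do not pair the samples. The 9 genes were named by their role, and they and the other lists were chosen with earlier results of these data known. All 9 are described. Called genes of the pathway lists are named, and marker lists are given by counts with a few examples. For each of the 9, the genes with the highest r of log2 CPM were also named. The list of lipoprotein receptors is not reported here.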

Additional observations from a re-analysis of the deposited data

Results flagged for a closer look

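In 36 sets of 5 libraries, 1 for each uptake gene and group, 4 held a library that stood apart from the other 4 by more than 0.71 of the range of the set, and chance alone flags about 1 set in 20. Fabp4 was lowest, at 8056 CPM, in high-fat water library 4. Vldlr was highest, at 201.5 CPM, in high-fat tea library 1. Gpihbp1 was lowest, at 112.5 CPM, and Slc27a4 highest, at 268.1 CPM, in chow water library 1. All 3 libraries hold over 1% of reads from genes of another organ, and the part of those reads in these values was not tested.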

How the results depend on the processing

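Of 886 values of the 9 genes under the alternatives, 810 kept their direction and their side of the threshold, 18 lost a call, 7 gained one and 51 changed sign, all of the last in genes not called. In high-fat against chow feeding with water, Slc27a1 was not called by limma voom (adjusted p = 0.0643), without the filter (0.0598) or with the replicate block (0.052). Fabp5 was not called without the 9 libraries with over 0.1% of other-organ reads (log2 1.15, adjusted p = 0.0825). These 9 were chow water 1 and 2, chow tea 1, high-fat water 3, 4 and 5 and high-fat tea 1, 3 and 4. High-fat water then kept only libraries 1 and 2, and high-fat tea only libraries 2 and 5. The replicate block gave 2611, 632, 2, 28 and 14 genes called in the 5 comparisons in the order of the report, and 2 uptake genes in the first and 0 elsewhere.

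With DESeq2 the genes called numbered 2444 with tea in high-fat feeding (1 uptake gene), 260 with tea in chow, 935 between diets in tea and 692 for the interaction. Voom gave 73 and 6 for the last 2, and no filter gave 408, 2, 19 and 4. With only the groups compared there were 21, 0 and 5, the interaction not being fitted. Without the 5 libraries with over 1% of other-organ reads there were 3 with tea in chow, and 1 uptake gene with tea in high-fat feeding. Without the 9 libraries, which leaves fewer libraries in every group, there were 2052, 13, 0, 5 and 0. With 1 library left out at a time the counts ran from 1890 (without high-fat water library 1) to 3445, from 212 (without high-fat water library 1) to 2017 (without high-fat tea library 5), from 2 to 6, from 10 to 390 (without high-fat tea library 3) and from 3 to 111 (without high-fat tea library 5). Uptake genes called ran from 1 (without high-fat water library 1, 2 or 5) to 3 between diets in water and from 0 to 1 with tea in high-fat feeding. The cause of these shifts was not tested.

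The sign changed for the following log2 values. Between diets in water, Fabp4 was −0.0086 with RLE and DESeq2, −0.0099 with no filter, −0.041 without the 5 libraries and −0.13 without the 9, and Angptl4 was 0.058 with voom and 0.013 without the 9. With tea in high-fat feeding Slc27a4 was −0.12 without the 5 and −0.28 without the 9. With tea in chow, the values without the 5 and without the 9 were 0.22 and 0.11 for Slc27a4, −0.073 and −0.15 for Cd36 and −0.091 and −0.18 for Angptl4, and without the 9 they were −0.072 for Fabp4 and −0.060 for Fabp5. Between diets in tea Fabp5 was −0.0048 with voom and Cd36 0.0034 without the 9. For the interaction, Gpihbp1 was −0.18 with voom and −0.0071 with the replicate block, Slc27a1 was −0.032 with voom, and Slc27a4 was −0.34 without the 5 and −0.39 without the 9.

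With 1 library left out, the ranges that crossed 0 were, between diets in water, −0.22 to 0.12 for Angptl4, −0.062 to 0.38 for Cd36, −0.23 to 0.15 for Fabp4 and −0.12 to 0.26 for Lpl. With tea in chow they were −0.11 to 0.20 for Angptl4, −0.10 to 0.32 for Cd36 and −1.0 to 0.20 for Slc27a4. They were −0.034 to 0.16 for Slc27a4 with tea in high-fat feeding and −0.12 to 0.38 for Fabp5 between diets in tea. For the interaction they were −0.16 to 0.23 for Gpihbp1, −0.044 to 0.59 for Slc27a1 and −0.084 to 1.09 for Slc27a4. With 5 libraries a group and a common biological coefficient of variation of 0.593, a 2-fold change can go uncalled, and intervals cover the spread between libraries only.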
